A study of Drosophila melanogaster with 7 samples.

Results

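Single-cell RNA sequencing counts from the central brain of male *Drosophila melanogaster* were examined for 9 genes of 5 neuropeptide systems. The peptide genes were *Dh44*, *Lk*, *Crz*, *SIFa* and *Dsk*, and the receptor genes were *Dh44-R1*, *Lkr*, *CrzR* and *SIFaR*. These 9 were taken by symbol from the 16764 genes of 7 sequencing runs, and the rule used no measured value. A cell was called a peptide cell when it held at least 20 UMIs (unique molecular identifiers, each counting 1 captured RNA molecule) of that peptide gene. Receptors were measured as UMIs summed per run and cell type.

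The flies came from 10 inbred lines of the Drosophila Genetic Reference Panel (DGRP), with no transgene or mutation named, and were 4 to 9 days old. Each run pooled the dissociated brains of 5 to 9 lines, each line standing for a state of the sleep–wake cycle: spontaneous sleep, spontaneous wakefulness, mechanical sleep deprivation, recovery sleep, yoked control or sleep induced by gaboxadol. By the deposited sample table, run 1 held flies taken at zeitgeber time (ZT, hours after lights on) 8 and 20, runs 2 and 3 at ZT 2 and 20, run 4 at ZT 2 and 14, run 5 at ZT 20 only, and runs 6 and 7 at ZT 8 only. Cells were not assigned here to a fly, a line or a condition, so the 7 runs served as replicates, and the p-values measure only the spread between runs, which may be technical.

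Neuropeptides are cut from larger precursors, packed into dense-core vesicles and released to act on G-protein-coupled receptors, often at a distance. Dh44, related to mammalian corticotropin-releasing factor, is made by neurosecretory cells of the pars intercerebralis that carry output of the circadian clock to locomotor activity, and leucokinin (*Lk*) acts on water balance, feeding and sleep. Corazonin (*Crz*), related to gonadotropin-releasing hormone, comes from lateral neurosecretory cells and is linked to stress and metabolism, SIFamide (*SIFa*) comes from a few large pars intercerebralis neurons that arborize through the brain and act on appetite, courtship and sleep, and drosulfakinin (*Dsk*) is the fly relative of cholecystokinin and signals satiety.

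In build BDGP6, *Dh44* lies on chromosome 3R (9638182 to 9650706, plus strand), as do *Crz* (14314854 to 14315716, plus strand), *Dsk* (4189692 to 4190260, minus strand) and *SIFaR* (21276664 to 21293998, minus strand). *Lk* (14560139 to 14560764), *Lkr* (5512421 to 5529341) and *CrzR* (12339116 to 12351544) are on the minus strand of chromosome 3L. *Dh44-R1* (14378097 to 14385359, plus strand) and *SIFa* (24577566 to 24578143, minus strand) are on chromosome 2R.

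After filters and removal of 16529 called doublets, 140953 cells remained, 9340 to 30150 per run, with 48209012 to 258356430 UMIs per run and a median of 3890.5 to 6776 UMIs per cell. Pairs of runs shared 35 to 355 cell barcodes, 0.342 to 1.14% of the smaller run. Runs 2, 3 and 4 had been deposited with no barcode under 2658 UMIs, against a smallest barcode of 500 UMIs in the other 4 runs. Cells were grouped into 210 clusters, numbered from the largest, without using the 9 genes, and clusters were named only from marker genes. The largest class, 99597 cells of 162 clusters, was neuronal with no marker-based name and is called unnamed neurons here. Markers of hemocytes were at 0 UMIs in *Lk*, *Crz* and *Dsk* cells for 7 of 7 genes, and summed glial markers reached 124 to 1503 CPM (UMIs of a gene per 1000000 UMIs of the group) per run in *Dh44* cells, 497 to 1382 in *SIFa* cells and 222 to 754 in neurons without these peptides. Photoreceptor markers summed to 235 to 485 CPM in *Dh44* cells and 402 to 735 CPM in neurons without these peptides, while *Crz* cells reached 197 to 879 CPM. Muscle markers stayed at or below 12.1 CPM in every peptide cell group. Fat body markers summed to 94.7 to 347 CPM in *SIFa* cells, 40.8 to 232 in *Dsk* cells, 68.2 to 190 in *Dh44* cells, 98.6 to 168 in *Lk* cells and 44.3 to 159 in *Crz* cells, against 82.3 to 114 CPM in neurons without these peptides, and 1 to 3 of the 5 genes were at 0 in each peptide cell group. The part of these markers in the results was not tested.

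Peptide cells were rare and present in every run. *Dh44* had 273 of them (0.194% of cells, 95% Clopper-Pearson interval 0.171 to 0.218%, which like the others here covers counting error only), with 59, 53, 69, 37, 21, 25 and 9 in runs 1 to 7. *Crz* had 167 (0.118%, 0.101 to 0.138%) and *SIFa* 130 (0.0922%, 0.0771 to 0.110%). *Lk* had 35 (0.0248%, 0.0173 to 0.0345%) and *Dsk* 16 (0.0114%, 0.00649 to 0.0184%), both with a single cell in at least 1 run. Between runs, the share of cells varied from 0.0964 to 0.278% for *Dh44*, 0.0749 to 0.143% for *Crz*, 0.0535 to 0.116% for *SIFa*, 0.00795 to 0.0397% for *Lk* and 0.00471 to 0.0238% for *Dsk*. These few cells held 47.3% of all *Dh44* UMIs, 90.3% of *Lk*, 92.4% of *Crz*, 83.6% of *SIFa* and 79.0% of *Dsk* UMIs.

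The UMIs per cell fell into levels, read here with a limit of 500 UMIs that was chosen after the values were seen, so that what follows on levels is a description. Of the *Dh44* cells, 14 held 748 to 2247 UMIs and the other 259 held at most 140. Of the *SIFa* cells, 11 held 6468 to 15863 UMIs and 119 at most 471. For *Dsk*, 10 cells held 2531 to 37993 UMIs and 6 at most 212, and for *Lk*, 8 held 967 to 6707 and 27 at most 216. *Crz* had no gap, with 48 cells from 537 to 39927 UMIs and 119 up to 446. Near the limit of 20 UMIs, the counts of cells at 20 to 24 and at 15 to 19 UMIs were 75 and 168 for *Dh44*, 14 and 23 for *Crz*, 6 and 10 for *SIFa*, 2 and 8 for *Dsk* and 2 and 1 for *Lk*. With limits of 10 and 50 UMIs in place of 20, 820 and 64 cells passed for *Dh44*, a wider change than for the other 4 peptides.

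**Figure D1:**
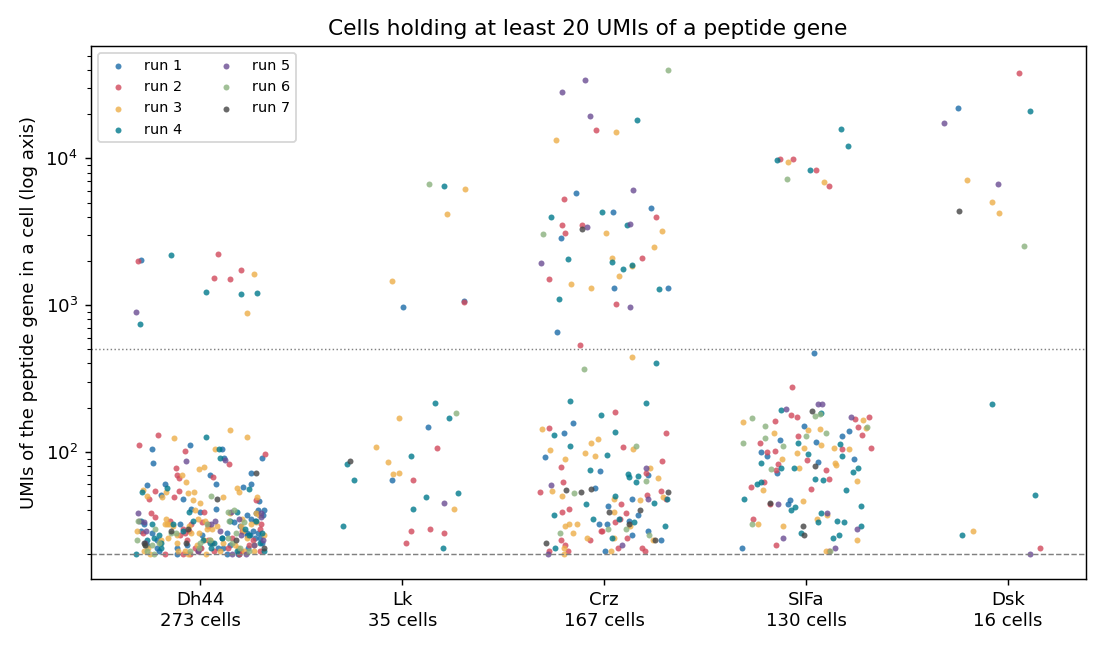
UMIs of each peptide gene per cell (log axis, UMIs) for every cell holding at least 20 of them, by peptide gene; each point is a cell colored by run, and the lines mark 20 and 500 UMIs. The 14 upper *Dh44* cells (748 to 2247 UMIs) and the 11 upper *SIFa* cells (6468 to 15863 UMIs) stand above a gap, while *Crz* cells spread without one.

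UMIs of these peptide genes also lay at a low level in cells of every class, glia included. In cells under 20 UMIs, *Crz* reached 2.67 to 32.6 CPM over runs in unnamed neurons and 2.16 to 48.5 CPM in γ-Kenyon cells (γ-KC, mushroom body neurons). *SIFa* reached 0.790 to 68.5 CPM in unnamed neurons, 0 to 93.5 CPM in γ-KC and 0 to 103 CPM in astrocyte-like glia (ALG). *Dsk* reached 0.764 to 91.8 CPM in unnamed neurons and 0.285 to 125 CPM in γ-KC, and *Lk* 0.599 to 5.48 CPM in unnamed neurons and 0 to 6.74 CPM in γ-KC. For these 4 genes the ranges overlapped, and values of this size are read here as background. That reading was not tested, since the level of free RNA was not estimated. *Dh44* differed: it stood at 28.5 to 43.0 CPM in unnamed neurons and at 2.16 to 18.3 CPM in γ-KC, with no overlap, at median depths of 6020 and 5694 UMIs per cell. ALG, shallower at 3510 UMIs per cell, ran from 0 to 29.9 CPM of *Dh44* and overlapped the range of unnamed neurons, while lying below them in each of the 7 runs. Over all cells of a type, *Dh44* averaged 308 ± 96.0 CPM in clock-like neurons (lowest 208, median 268, highest 466), 144 ± 100 CPM in non-PAM dopaminergic-like neurons and 63.3 ± 22.2 CPM in unnamed neurons, against 10.5 ± 6.89 CPM in γ-KC (SD, n = 7 runs).

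**Figure D2:**
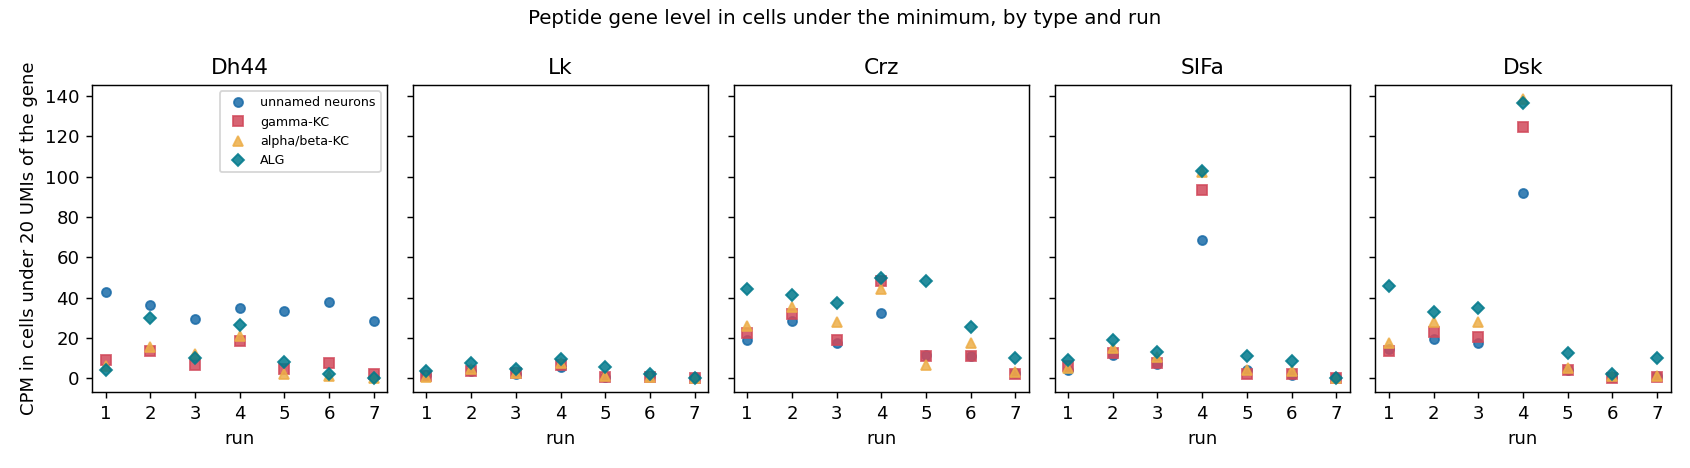
CPM of each peptide gene in cells holding fewer than 20 of its UMIs (linear axis) against run, 1 panel for each peptide gene; each point is a run, with colors for unnamed neurons, γ-KC, α/β-KC and ALG. *Dh44* alone is higher in unnamed neurons (28.5 to 43.0 CPM) than in γ-KC (2.16 to 18.3 CPM) in every run.

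All 14 upper *Dh44* cells fell into cluster 145, a group of 343 unnamed neurons led by *Crz*, *CG32040*, *CG13996*, *Ilp2*, *ITP*, *Ilp5* and *Ilp3*. They held *Ilp2*, an insulin-like peptide of the median neurosecretory cells, in 14 of 14 cells (7 to 400 UMIs, median 63), and 12 of the 14 also passed 20 *Ilp2* UMIs. *Ilp2* stood at 4080 CPM in the upper *Dh44* cells, 27.5 CPM in the lower ones and 313 CPM in neurons without these peptides. By run it was 5429, 4329, 567, 2263 and 13910 CPM in the upper *Dh44* cells of runs 1 to 5, against 555, 205, 392, 561 and 37.3 CPM in all unnamed neurons of the same runs, which include those cells. The upper *Dh44* cells were higher in each of the 5 runs, and their lowest value lay just above the highest of unnamed neurons. For scale, the 49 cells with at least 200 *Ilp2* UMIs had a median of 3500 (207 to 20309), and 4 of them held 20 or more *Dh44* UMIs. Free *Ilp2* RNA and joined cells were not tested as a source of these counts.

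The upper *Dh44* cells had other features of a neurosecretory cell. *Gpb5*, a glycoprotein hormone subunit, was at 3309 CPM in the upper *Dh44* cells (16 to 186 UMIs in each cell, median 107), 110 CPM in the lower and 80.4 CPM in neurons without these peptides. *dimm*, the transcription factor that sets up the neurosecretory state, was at 105, 12.3 and 1.20 CPM in the same order. *Dh44-R2*, the second Dh44 receptor, was at 74.0, 10.9 and 13.1 CPM, while *Dh44-R1* was at 2.39, 38.6 and 23.8 CPM. *SIFaR* had no UMI in the upper *Dh44* cells, against 21.1 CPM in the lower and 12.4 CPM in neurons without these peptides, and *Clk*, a core clock activator, had none, against 9.17 and 1.19 CPM. In this description the upper *Dh44* cells were high in *Dh44-R2* and low in *Dh44-R1*.

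The 259 lower *Dh44* cells were spread. Of these, 199 were unnamed neurons, 27 clock-like and 14 non-PAM dopaminergic-like. By cluster, 27 were in cluster 145, 25 in clock-like cluster 126 (462 cells), 23 in cluster 160 (294 unnamed neurons led by *SIFa*, *NPF*, *AstA*, *Mip*, *Dsk* and *Hug*) and 14 each in clusters 122 and 150. Their median depth was 16139 UMIs per cell, against 33344 in the upper cells. Across all pairs of the 5 peptides and *Ilp2*, cells passing 20 UMIs of both were 22 for *Dh44* with *Crz*, 12 for *Dh44* with *Ilp2*, 1 for *Dh44* with *SIFa* and 0 for every other pair. Of the 22, 21 were in the upper *Crz* level (medians 34 *Dh44* and 1864.5 *Crz* UMIs).

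Peptide cells were then compared with neurons that held fewer than 20 UMIs of all 5 peptides, by UMI sums per run and edgeR's quasi-likelihood test with Benjamini-Hochberg adjustment over all genes. The peptide cells were deeper, with medians of 16572 (*Dh44*), 40567 (*Lk*), 14463 (*Crz*) and 9770 (*SIFa*) UMIs per cell, against 6020 in unnamed neurons. The part of depth in the differences below was not tested. For *Dh44* cells, 838 of 8212 genes were higher and 837 lower (10.2% and 10.2%). Of the other 8 members, *Dsk* was called lower. *Crz* averaged 8872 CPM in *Dh44* cells, higher in 6 of 7 runs than the 17.5 CPM in neurons without, but those neurons had been limited to cells under 20 *Crz* UMIs, so that its test there is not given. Against neurons limited on *Dh44* alone, *Crz* was higher by 4.51 on the log2 scale (edgeR adjusted p = 0.000499). The mean came from few cells: 22 of 273 *Dh44* cells held at least 20 *Crz* UMIs, the median was 0 in upper and lower *Dh44* cells, and no upper cell held more than 1. *Dsk* (-1.07, adjusted p = 0.00208) lay within its background range on both sides. *SIFaR* was at 36.7 ± 64.6 CPM in *Dh44* cells and 11.8 CPM in neurons without (SD, n = 7), a mean carried by 182 CPM from 24 UMIs in run 7, and missed the threshold (adjusted p = 0.373).

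By gene group, 10 of 11 genes of peptide processing and release were higher in *Dh44* cells and 1, *Caps*, a vesicle-priming factor, was lower (median log2 difference 1.08, against -0.05 over all genes tested). *dimm* averaged 16.9 CPM in *Dh44* cells and 1.12 CPM in neurons without (3.84), and the prohormone convertase gene *amon* (1.07) and the amidating-enzyme gene *Pal2* (1.31) were higher. Of 8 clock genes, *tim*, *Clk*, *vri* and *cwo* were higher, with a median of 0.53 over the list, and *tim* differed by 1.42. *Clk* averaged 8.71 CPM in *Dh44* cells and 1.01 CPM in neurons without (2.98), and with a limit of 50 UMIs, which left 64 cells, it turned to -1.12. Of 10 transmitter genes, *Vmat* (monoamine vesicle transporter, 1.83) and *ple* (dopamine synthesis, 1.79) were higher, and the cholinergic genes *VAChT* and *Cha* lower. Of 31 other peptide genes tested, 6 were higher, among them *sNPF* (1.71) and *AstC* (3.65, adjusted p = 0.0153), and 13 lower, among them *ITP* (-1.83). Of 24 patterning factors, 2 were higher and 8 lower, and of 5 partner genes (*Dh44-R2*, *Dh31*, *Dh31-R* and the Dsk receptors *CCKLR-17D1* and *CCKLR-17D3*) the smallest adjusted p was 0.136, for *Dh31-R* (0.37). Beyond *Dh44* itself, the genes with the largest upward differences among those higher in every run, from 2.22 to 3.36 on the log2 scale, were *CG3036*, *Clk*, *CG42394*, *CG13313*, *Rab9*, *CG17597*, *CG14795*, *CG4577* and *MFS3*. The 5 named downward (*drm*, *E5*, *opa*, *Gr77a* and *inv*) had no UMI in *Dh44* cells, and against a floor of 3 counts over the group were at least 2.94-fold (*inv*) to 6.15-fold (*drm*) lower.

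*Lk* cells fell into separate kinds. Of the 8 upper *Lk* cells, 4 were in cluster 136, adPN-like by its markers (adPN are antennal lobe projection neurons), and 4 in cluster 160. Of the 27 lower *Lk* cells, 19 were in cluster 145. The lower cells were deep, with a median of 59538 UMIs, against 20647 in the upper cells.

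The lower *Lk* cells were dominated by *ITP*, which encodes ion transport peptide, an antidiuretic hormone. *ITP* stood at 30.5 CPM in the upper *Lk* cells, 306559 CPM in the lower and 232 CPM in neurons without these peptides, and 23 of the 27 lower cells held it, at a median of 16515 UMIs. *Tk* (tachykinin) was at 7.6 CPM in the upper and 4895 CPM in the lower *Lk* cells, and *sNPF* (short neuropeptide F) at 2749, 11643 and 401 CPM in upper *Lk* cells, lower *Lk* cells and neurons without. *Lkr*, the leucokinin receptor, had no UMI in the upper *Lk* cells, against 80.2 CPM in the lower, where 18 of 27 cells held a UMI, and 6.45 CPM in neurons without. *SIFaR* was at 7.64, 42.1 and 12.4 CPM. The patterning gene *Lim3* ran the other way, at 328, 4.05 and 30.8 CPM. Lateral neurosecretory cells of the fly brain are known to hold *Lk* together with *ITP*, *Tk* and *sNPF*.

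The test for *Lk* rested on runs 1 to 4, which each had at least 3 *Lk* cells (31 in all). Of 8964 genes, 961 were higher and 1055 lower (10.7% and 11.8%). Of the other members, *Lkr* and *SIFaR* were higher, and *Dh44-R1* and *Dsk* lower. *Lkr* was at 117, 61.5, 72.5 and 51.6 CPM in the *Lk* cells of runs 1 to 4, against 7.34, 6.05, 5.99 and 5.70 CPM in neurons without. The groups did not overlap, and the means were 75.6 ± 28.7 and 6.27 ± 0.73 CPM (SD, n = 4). The log2 difference was 3.98 (SE 0.29, edgeR adjusted p = 1.90e-22). *SIFaR* was at 58.3, 15.4, 51.8 and 32.3 CPM in *Lk* cells, against 10.8, 13.1, 14.2 and 11.3 CPM in neurons without. *Lk* cells were higher in each of these runs, though the value of run 2 came from 2 UMIs in 7 cells. The log2 difference was 2.15 (edgeR adjusted p = 3.70e-08).

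*Dh44-R1* averaged 8.06 CPM in *Lk* cells and 24.3 CPM in neurons without (-1.51, adjusted p = 0.0225), a call lost with DESeq2 (0.102), with a limit of 10 UMIs (0.0660) and without run 3 (0.403) or run 4 (0.0949). *Dsk* (-1.45, adjusted p = 0.00570) was within its background and was lost with DESeq2 (0.126). Of the partners, the Dsk receptor genes *CCKLR-17D3* (1.67, adjusted p = 1.17e-06) and *CCKLR-17D1* (1.22, adjusted p = 0.0248) were higher, and *Dh44-R2* (-3.45, adjusted p = 0.00654) and *Dh31* lower. These differences are of *Lk* cells summed over both levels, and in the 8 upper *Lk* cells *Lkr* had no UMI and *SIFaR* stood below neurons without.

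Of the 11 processing genes, 10 were higher in *Lk* cells and *Caps* lower (median 1.23, against -0.21 over all genes tested), with *dimm* at 23.2 CPM in *Lk* cells and 1.20 CPM in neurons without (4.73). All 10 transmitter genes were lower (median -2.63). Of 31 other peptide genes, *sNPF* (5.05), *Tk*, *ITP* and *Gpb5* (1.98) were higher and 20 lower. *ITP* averaged 244375 CPM in *Lk* cells and 252 CPM in neurons without (10.42, adjusted p = 4.34e-47), and *Tk* 3690 and 141 CPM (5.11). Among patterning factors, *dimm* and *Lim3* were higher and 12 lower, and of the clock genes 2 were lower. The named genes upward besides *Lk* were *alphaTub85E* (10.96), *CG32040* (10.85), *CG13996* (10.56), *cln3*, *ITP*, *CR45553*, *Gr43a*, *CG3036* and *TwdlT* (8.00). The named genes downward, all with no UMI in *Lk* cells, were *Arr2*, *grn*, *Hr38*, *CG32105* and *Kr*, at least 17.9-fold (*Arr2*) to 8.13-fold (*Kr*) lower. *Arr2* is a photoreceptor marker, and summed photoreceptor markers were 54.7 to 223 CPM per run in *Lk* cells.

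*Crz* cells split by level and cluster. Of the 48 upper *Crz* cells, 46 were in cluster 145, and of the 119 lower ones 84 were in cluster 115, a group of 503 unnamed neurons. All 48 upper *Crz* cells held *sNPF* (median 291.5 UMIs), which reached 15278 CPM in the upper, 442 CPM in the lower and 401 CPM in neurons without. *Dh44* was at 866, 78.9 and 33.0 CPM, with 21 of the 48 upper *Crz* cells passing 20 *Dh44* UMIs. *Gpb5* was at 419 CPM in the upper and 32.6 CPM in the lower *Crz* cells, and *dimm* at 84.7 and 1.30 CPM. In the lower *Crz* cells these 4 genes were thus far below the upper ones, and *sNPF* and *dimm* were close to neurons without.

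The receptors ran in both directions between the *Crz* levels. *Dh44-R1* was at 64.1 CPM in the upper *Crz* cells, 8.48 CPM in the lower and 23.8 CPM in neurons without, and *SIFaR* at 20.7, 59.3 and 12.4 CPM. *scro*, a homeobox factor, was at 6.90, 338 and 48.8 CPM. *CrzR* was low in both levels, at 1.97 and 1.96 CPM, against 6.85 CPM in neurons without. Within cluster 115, the 84 cells with at least 20 *Crz* UMIs and the 419 under it had close levels of *SIFaR* (69.3 and 62.9 CPM) and *scro* (416 and 414 CPM), and *Crz* was at 3368 CPM and 170 CPM, with a UMI in 45.8% of the 419. *dimm* had no UMI in the 84 cells and 0.388 CPM in the 419.

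Over all *Crz* cells and 7 runs, 696 of 8105 genes were higher and 750 lower than in neurons without (8.59% and 9.25%). Of the other members, *SIFaR* was higher and *Dsk* lower. *SIFaR* had a lowest, median and highest value over runs of 13.8, 29.5 and 96.0 CPM in *Crz* cells, against 10.0, 11.3 and 14.2 CPM in neurons without. The ranges overlapped only at their ends, *Crz* cells were higher in 7 of 7 runs, and the means were 40.6 ± 27.9 and 11.8 ± 1.65 CPM (1.81, SE 0.24, edgeR adjusted p = 1.93e-05). *Dh44* had 0, 327 and 548 CPM in *Crz* cells, against 27.0, 34.2 and 40.6 CPM in neurons without, and was higher in 6 of 7 runs. Those neurons had been limited to cells under 20 *Dh44* UMIs, and against neurons limited on *Crz* alone the difference was 2.64 (edgeR adjusted p = 5.11e-06). *Dsk* (-1.02, adjusted p = 0.00629) was within its background, and its call was lost with DESeq2 (0.0597), a limit of 10 UMIs (0.203) and in the cells under 500 UMIs alone (0.167).

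*Dh44-R1* did not pass over all *Crz* cells (0.31, adjusted p = 0.273). It was lower in the cells under 500 UMIs alone (-1.51, adjusted p = 0.00362) and higher with a limit of 50 UMIs (0.65, adjusted p = 0.0256). Of 11 processing genes, 9 were higher and *Caps* lower (median 0.86, against -0.06 over all genes), among them *amon* (1.09) and *Pal2* (1.12). *dimm* averaged 32.7 CPM in *Crz* cells and 1.12 CPM in neurons without (4.95), but 0.06 (adjusted p = 0.991) in the cells under 500 UMIs alone. Of 10 transmitter genes 9 were lower. Of the 31 other peptide genes, *sNPF*, *Tk* (1.06) and *Gpb5* (1.25) were higher and 22 lower, and *sNPF* averaged 5563 CPM in *Crz* cells and 427 CPM in neurons without (3.79, adjusted p = 1.40e-10). Of the patterning factors, *dac*, *dimm*, *scro* and *bsh* were higher and 11 lower. Of 8 clock genes 1, *tim*, was higher and 2 lower, and of 5 partners only *Dh31* passed, lower.

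The named genes upward in *Crz* cells, besides *Crz*, were *CG4250* (6.78), *CG32444*, *CG2016* (5.78), *Eaat1* (a glutamate transporter and glial marker, 5.78), *CG9796*, *CG11085*, *CR45621*, *CG9743* and *dimm* (4.95). Of these, *CG32444*, *CG2016*, *CG9796* and *Eaat1* were also among the leading genes of cluster 115, the unnamed neurons that held 84 of the lower *Crz* cells. The 5 named downward had no UMI in *Crz* cells and were at least 14.7-fold (*CCHa1*), 5.24-fold (*PH4alphaNE1*), 5.15-fold (*CR44334*), 5.08-fold (*CCAP*) and 4.46-fold (*CR43724*) lower. *CCHa1* and *CCAP* both encode peptides. Summed glial markers were 48.5 to 655 CPM per run in *Crz* cells and 222 to 754 CPM in neurons without.

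**Figure D3:**
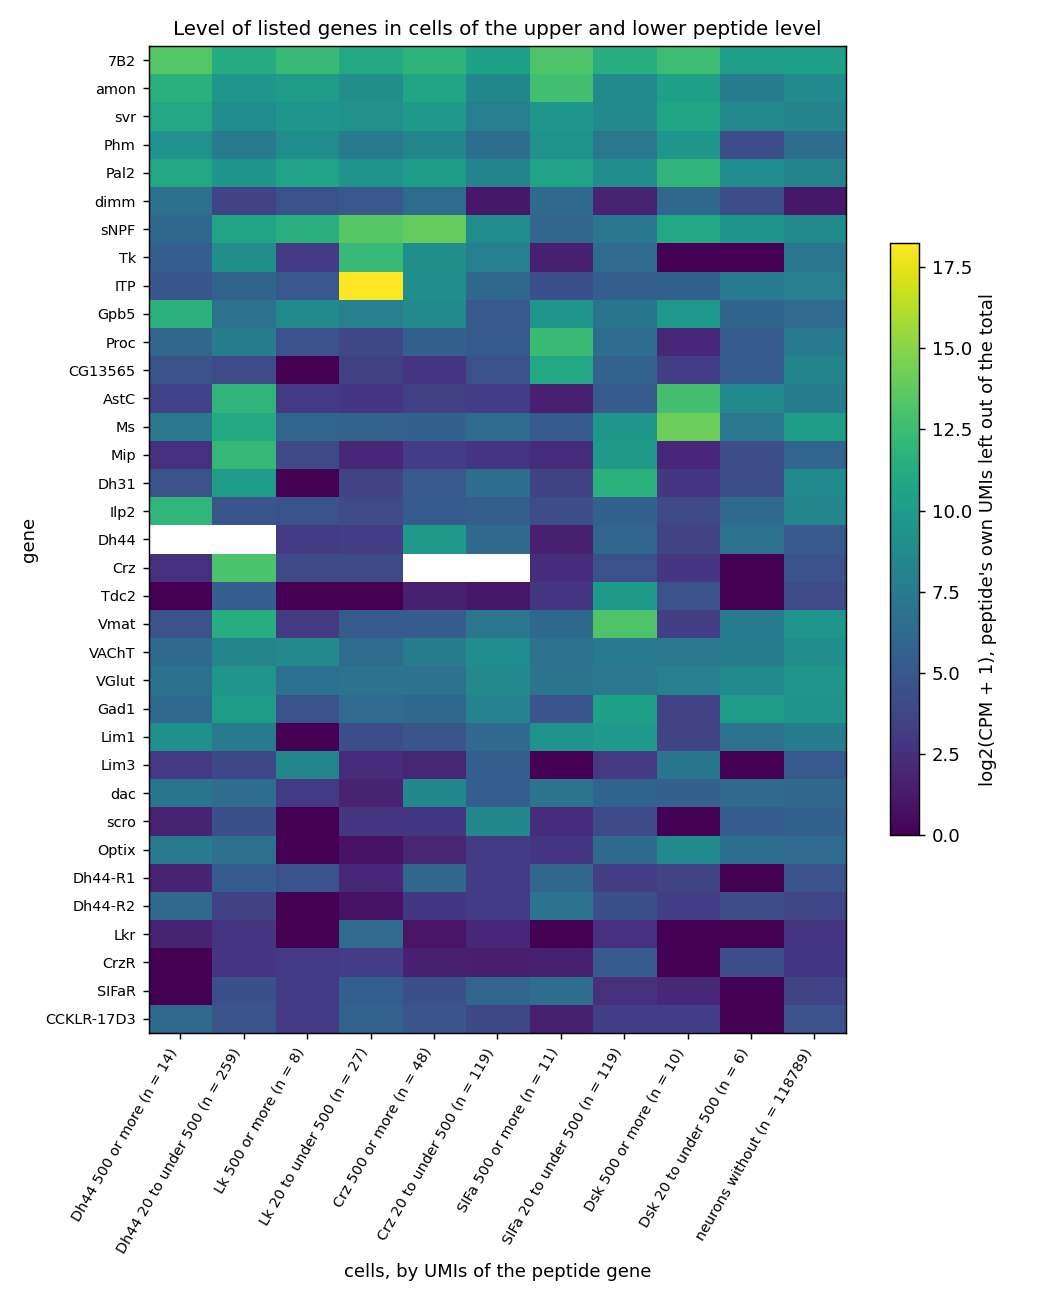
Color shows log2(CPM + 1), with the peptide's own UMIs left out of the total, of listed genes (down the page) in upper peptide cells (at least 500 UMIs), lower ones (20 to under 500 UMIs) and neurons without these peptides (across); white marks the peptide itself. *dimm* is high in every upper group, from 22.9 CPM (*Lk*) to 105 CPM (*Dh44*), against 1.20 CPM in neurons without.

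*SIFa* cells also split. All 11 upper *SIFa* cells were in cluster 160, and 100 of the 119 lower ones were in cluster 104, the 565 octopaminergic or tyraminergic-like neurons. In the 11 upper cells *Proc* (proctolin) was at 5455 CPM, against 90.0 CPM in the lower and 187 CPM in neurons without, with 41 to 723 UMIs in each of the 11 (median 144). *CG13565*, which encodes orcokinin, was at 1987, 53.9 and 288 CPM, and *amon* at 6683, 431 and 408 CPM. *SIFaR*, the receptor of SIFamide itself, was at 89.9, 4.44 and 12.4 CPM, and each of the 11 upper *SIFa* cells held 1 to 7 UMIs of it. *Dh44-R2* was at 123, 20.9 and 13.1 CPM, and *dimm* at 79.5, 2.53 and 1.20 CPM. The median depth of the upper *SIFa* cells was 48961 UMIs, against 9519 in the lower.

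The lower *SIFa* cells had the genes of tyramine synthesis and other peptides. *Tdc2*, the neuronal tyrosine decarboxylase, was at 6.27 CPM in the upper *SIFa* cells, 871 CPM in the lower and 16.5 CPM in neurons without, and *Vmat* at 69.0, 9344 and 740 CPM. *Mip* (myoinhibitory peptide) was at 4.18, 882 and 61.2 CPM and *Dh31* at 10.5, 3126 and 392 CPM. *CrzR* was at 2.09, 36.1 and 6.85 CPM.

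Within cluster 104, chosen after these values were seen and not tested, the 100 cells with at least 20 *SIFa* UMIs were set beside the 465 under it. *Mip* was at 1267 CPM (763 to 2187 over runs), against 11.1 CPM (4.69 to 18.9), and *Dh31* at 3881 CPM, against 73.6 CPM. *Tbh*, which makes octopamine from tyramine, was at 287 CPM (126 to 450), against 2181 CPM (1931 to 2460), while *Tdc2* was at 1241 CPM (1051 to 2281), against 1756 CPM (1354 to 2339), and overlapped. Levels of some receptors also differed between the same cells. *CrzR* was at 47.8 CPM (34.4 to 118), against 15.8 CPM (9.18 to 33.5). *SIFaR* was at 2.87 CPM from 3 UMIs (0 to 11.5), against 47.4 CPM (23.4 to 143), and *Dh44-R1* at 5.74 CPM (0 to 9.59), against 29.6 CPM (15.2 to 36.2). The ranges of *CrzR*, *SIFaR* and *Dh44-R1* did not overlap, though those of *CrzR* came close (34.4 against 33.5 CPM). How many other genes had no overlap between these cells is not given here. *Vmat* was at 13093 CPM, against 41599 CPM, and the homeobox gene *Lim1* at 1219 CPM, against 362 CPM.

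In the test over all *SIFa* cells and 7 runs, 736 of 8097 genes were higher and 921 lower than in neurons without (9.09% and 11.4%). Of the other members only *CrzR* passed. It had a lowest, median and highest value of 15.9, 32.03 and 71.0 CPM in *SIFa* cells, against 5.82, 7.22 and 8.29 CPM in neurons without. The groups did not overlap, and the means were 38.1 ± 19.7 and 7.17 ± 0.92 CPM (2.06, SE 0.27, edgeR adjusted p = 1.08e-05, higher in 7 of 7 runs). These sums cover both levels, and in the upper *SIFa* cells *CrzR* stood below neurons without. *SIFaR* was at 0.73 (adjusted p = 0.133) over all *SIFa* cells and lower in the cells under 500 UMIs alone (-1.69, adjusted p = 0.0292). *Dh44-R1* was at -0.21 over all and lower in the cells under 500 UMIs alone (-1.57, adjusted p = 0.00160).

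Of the 11 processing genes, 10 were higher in *SIFa* cells and *Caps* lower (median 0.88, against -0.05 over all genes), with *dimm* at 14.8 CPM in *SIFa* cells and 1.12 CPM in neurons without (3.67) and *amon* at 1.497. These sums too cover both levels, and in the lower *SIFa* cells *dimm* and *amon* stood far closer to neurons without than in the upper ones. *Tdc2* averaged 889 CPM in *SIFa* cells and 15.4 CPM in neurons without (5.65), and *Vmat* (3.57) and *Tbh* (1.92) were the other transmitter genes higher, with 5 of 10 lower. *Mip* averaged 945 and 55.1 CPM (3.89, adjusted p = 4.67e-10) and *Dh31* 3398 and 399 CPM (2.81) in *SIFa* cells and neurons without, and with *Gpb5* (1.59) they were the 3 of 31 other peptide genes higher, with 21 lower. Of the patterning factors, *dimm*, *Lim1* (2.16) and *bsh* were higher and 13 lower, and 1 of 8 clock genes, *Pdp1*, was lower. Of the 5 partners, *Dh44-R2* averaged 37.5 CPM in *SIFa* cells and 13.1 CPM in neurons without (1.65, adjusted p = 4.89e-05) and *Dh31* was higher, while *CCKLR-17D1* (-1.56, adjusted p = 0.0121) and *CCKLR-17D3* (-1.50, adjusted p = 0.000814) were lower.

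The named genes upward in *SIFa* cells, besides *SIFa*, were *CG14516* (6.53), *Dl* (a Notch ligand, 5.80), *Nep2* (a neprilysin-family peptidase, 5.73), *Tdc2*, *CR44165*, *CG15909*, *MFS3*, *Sox21a* and *rgr* (4.27). The 5 named downward had no UMI in *SIFa* cells and were at least 16.6-fold (*Hr38*), 13.5-fold (*pb*), 11.2-fold (*CCHa1*), 9.64-fold (*Poxn*) and 7.85-fold (*sosie*) lower. *Hr38*, a nuclear receptor gene driven by neuronal activity, was also among the named genes of *Lk* cells.

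*Dsk* cells could not be tested, since only runs 3, 4 and 5 held 3 or more. Of the 16 cells, 8 were in cluster 160. In the 10 upper *Dsk* cells, the peptide gene *Ms* (myosuppressin) was at 17069 CPM and *AstC* (allatostatin C) at 7517 CPM, against 399 CPM of *AstC* in neurons without. Few cells carried these sums: *Ms* had a median of 1.5 UMIs, with 2 of the 10 cells at 20 or more and a highest of 4576, and *AstC* a median of 33 and a highest of 1589. *Optix*, a homeobox transcription factor, was at 429 CPM and held in 10 of 10 cells. *dimm* was at 71.4 CPM in the upper *Dsk* cells, 18.98 CPM in the lower and 1.20 CPM in neurons without, and *Gpb5* at 860 CPM in the upper and 56.9 CPM in the lower.

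The receptors were next compared between 15 classes and unnamed neurons, in 60 comparisons of the 4 genes. Of these, 15 were called higher and 31 lower by edgeR's quasi-likelihood test with Benjamini-Hochberg adjustment over all genes: 6 and 7 of 15 classes for *Dh44-R1*, 2 and 9 for *Lkr*, 3 and 8 for *CrzR* and 4 and 7 for *SIFaR*. Calls were common in these comparisons, with 15.3 to 35.7% of all genes higher and 16.4 to 37.3% lower in a class. The number of receptor calls is therefore not read as a result about the receptors. The classes called higher differed between receptors but were shared in part, with 2 of the 4 receptors higher in octopaminergic or tyraminergic-like neurons.

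*CrzR* was led by perineurial glia-like cells (PG, the outer sheath of the brain), 963 cells of 1 cluster. Its lowest, median and highest values over runs were 182, 300 and 366 CPM in PG, against 6.57, 7.45 and 9.22 CPM in unnamed neurons. No run overlapped, and the means were 298 ± 64.8 and 7.73 ± 1.04 CPM (SD, n = 7; log2 difference 5.66, SE 0.15, adjusted p = 1.83e-10). In PG, 30.6% of all genes were higher and 36.7% lower. PG cells held a median of 7803 UMIs, against 6020 in unnamed neurons. Octopaminergic or tyraminergic-like neurons followed with 12.5, 23.7 and 38.6 CPM (mean 25.1 ± 9.63), again above every value of unnamed neurons (1.48, SE 0.17, adjusted p = 1.15e-06; 19.5% of genes higher and 22.8% lower). Clock-like neurons had 10.3, 16.4 and 22.0 CPM, with no overlap (1.03, SE 0.18, adjusted p = 0.000216; 20% and 22.9%). In the order of the class means, only the step from PG to the next class exceeded the larger SD of the pair.

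*Lkr* was also highest in PG, with 25.2, 44.8 and 66.5 CPM, against 6.21, 7.36 and 9.40 CPM in unnamed neurons. No run overlapped, and the means were 46.3 ± 13.2 and 7.60 ± 1.20 CPM (3.00, SE 0.13, adjusted p = 2.93e-09). Cells with at least 20 *Ilp2* UMIs, called *Ilp2* cells here, numbered 127, of which 110 were unnamed neurons and 12 were upper *Dh44* cells, and the limit does not by itself mark an insulin-producing cell, since 1 ALG cell held 1303 *Ilp2* UMIs. They averaged 23.6 ± 15.5 CPM, against 7.64 CPM in unnamed neurons, and were higher in 5 of 6 runs with overlap (2.03, SE 0.32, adjusted p = 7.31e-05; 17.7% of genes higher and 18.8% lower). Without the *Dh44* cells among them the difference was 2.21 (adjusted p = 5.03e-05). Leucokinin receptor on insulin-producing cells is known in the fly. In the order of means, again only the step below PG exceeded the larger SD. Over all genes tested, the median log2 difference was -0.16 in PG, -0.11 in ensheathing glia-like cells (EG), -0.11 in subperineurial glia-like cells (SPG) and -0.11 in *Ilp2* cells, so that values near these are no change relative to the other genes.

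*Dh44-R1* was highest in PAM dopaminergic-like neurons and α/β-KC. PAM dopaminergic-like neurons (the protocerebral anterior medial cluster) had a lowest, median and highest value of 47.7, 73.5 and 106 CPM, against 19.8, 22.1 and 27.8 CPM in unnamed neurons. With no overlap the means were 74.4 ± 22.7 and 22.9 ± 2.56 CPM (1.56, SE 0.10, adjusted p = 3.27e-09; 16.8% of genes higher and 19.5% lower). α/β-KC, the mushroom body neurons linked to long-term memory, had 40.9, 65.6 and 94.98 CPM (67.2 ± 16.8), also with no overlap (1.57, SE 0.10, adjusted p = 5.76e-07; 34.1% and 34.6%). The other KC ran the other way, at a mean of 3.73 CPM in γ-KC (-2.17, adjusted p = 1.03e-05; 35.7% and 35.3%) and 2.85 CPM in α′/β′-KC (-2.41; 29% and 37.3%).

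Serotonergic-like neurons had 27.5, 47.2 and 101 CPM of *Dh44-R1*, overlapping unnamed neurons (54.2 ± 28.9; 1.21, SE 0.21, adjusted p = 0.000189; 19% and 20%). Non-PAM dopaminergic-like neurons had 36.5, 40.8 and 58.7 CPM with no overlap (45.6 ± 8.66; 0.97, SE 0.10, adjusted p = 2.26e-07; 15.3% and 19.2%), and ellipsoid body (EB) ring-like neurons 23.5, 33.6 and 47.5 CPM with overlap (0.69, SE 0.11, adjusted p = 3.10e-05; 26.1% and 28.6%). In clock-like neurons the mean was 27.6 ± 4.38 CPM (0.30, SE 0.10, adjusted p = 0.0186), a call lost with DESeq2 (0.0535), with no filter on low counts (0.0574) and without run 3 (0.113). That call was also lost at a clustering resolution of 16 in place of 8 (0.16, edgeR adjusted p = 0.273). *Dh44-R1* was lower in PG (mean 2.93 CPM, -2.46), EG (30% and 33.3%), SPG (17.9% and 16.4%), ALG (29.4% and 30.1%) and *Ilp2* cells (-1.25, adjusted p = 0.0230). The call in *Ilp2* cells was lost without run 2 (0.0746) or run 3 (0.113) and without the *Dh44* cells among them (-1.04, adjusted p = 0.0635). Octopaminergic or tyraminergic-like neurons, at 24.6 CPM, did not pass (0.20, adjusted p = 0.220). The steps from non-PAM dopaminergic-like to EB ring-like neurons and from unnamed neurons to the next class below, *Ilp2* cells (8.07 ± 8.37 CPM, n = 6 runs), exceeded the larger SD, and the others in the order did not.

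*SIFaR* was highest in octopaminergic or tyraminergic-like and serotonergic-like neurons. Octopaminergic or tyraminergic-like neurons had 19.6, 44.4 and 127.9 CPM, against 9.30, 11.2 and 13.8 CPM in unnamed neurons, with no overlap (53.8 ± 36.5 and 11.5 ± 1.69 CPM; 1.85, SE 0.23, adjusted p = 4.62e-06). Serotonergic-like neurons had 11.5, 36.0 and 82.6 CPM with overlap (41.4 ± 22.9; 1.65, SE 0.20, adjusted p = 5.73e-06), and clock-like neurons 16.98, 28.6 and 43.8 CPM with none (1.05, SE 0.21, adjusted p = 0.000531). γ-KC, with 14.4, 18.9 and 30.0 CPM, were above unnamed neurons in every run (0.89, SE 0.12, adjusted p = 7.91e-05), whereas α/β-KC (-1.50) and α′/β′-KC (-0.81) were below. The dopaminergic-like classes did not pass, at 0.22 in PAM (adjusted p = 0.262) and -0.49 in non-PAM (adjusted p = 0.0585). *CrzR* was lower in α/β-, α′/β′- and γ-KC, as was *Lkr*, at differences of -1.84 to -2.30 and -2.01 to -2.10. In adPN-like neurons (28.7% of genes higher and 33.4% lower), *CrzR* (-1.07), *SIFaR* (-0.50) and *Lkr* (-0.50) were lower. The *Lkr* call was lost without run 2 (adjusted p = 0.0881) or run 3 (0.0544), and both *SIFaR* and *Lkr* missed the threshold in the exact sign-flip test (adjusted p = 0.0583 each). Lower *Lkr* calls in PAM dopaminergic-like neurons, serotonergic-like neurons and ALG were also lost in several alternatives. Among these were resolution 4 for PAM (edgeR adjusted p = 0.0654) and ALG (0.0572), and DESeq2 (0.0926) and the sign-flip test (0.0583) for serotonergic-like neurons.

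**Figure D4:**
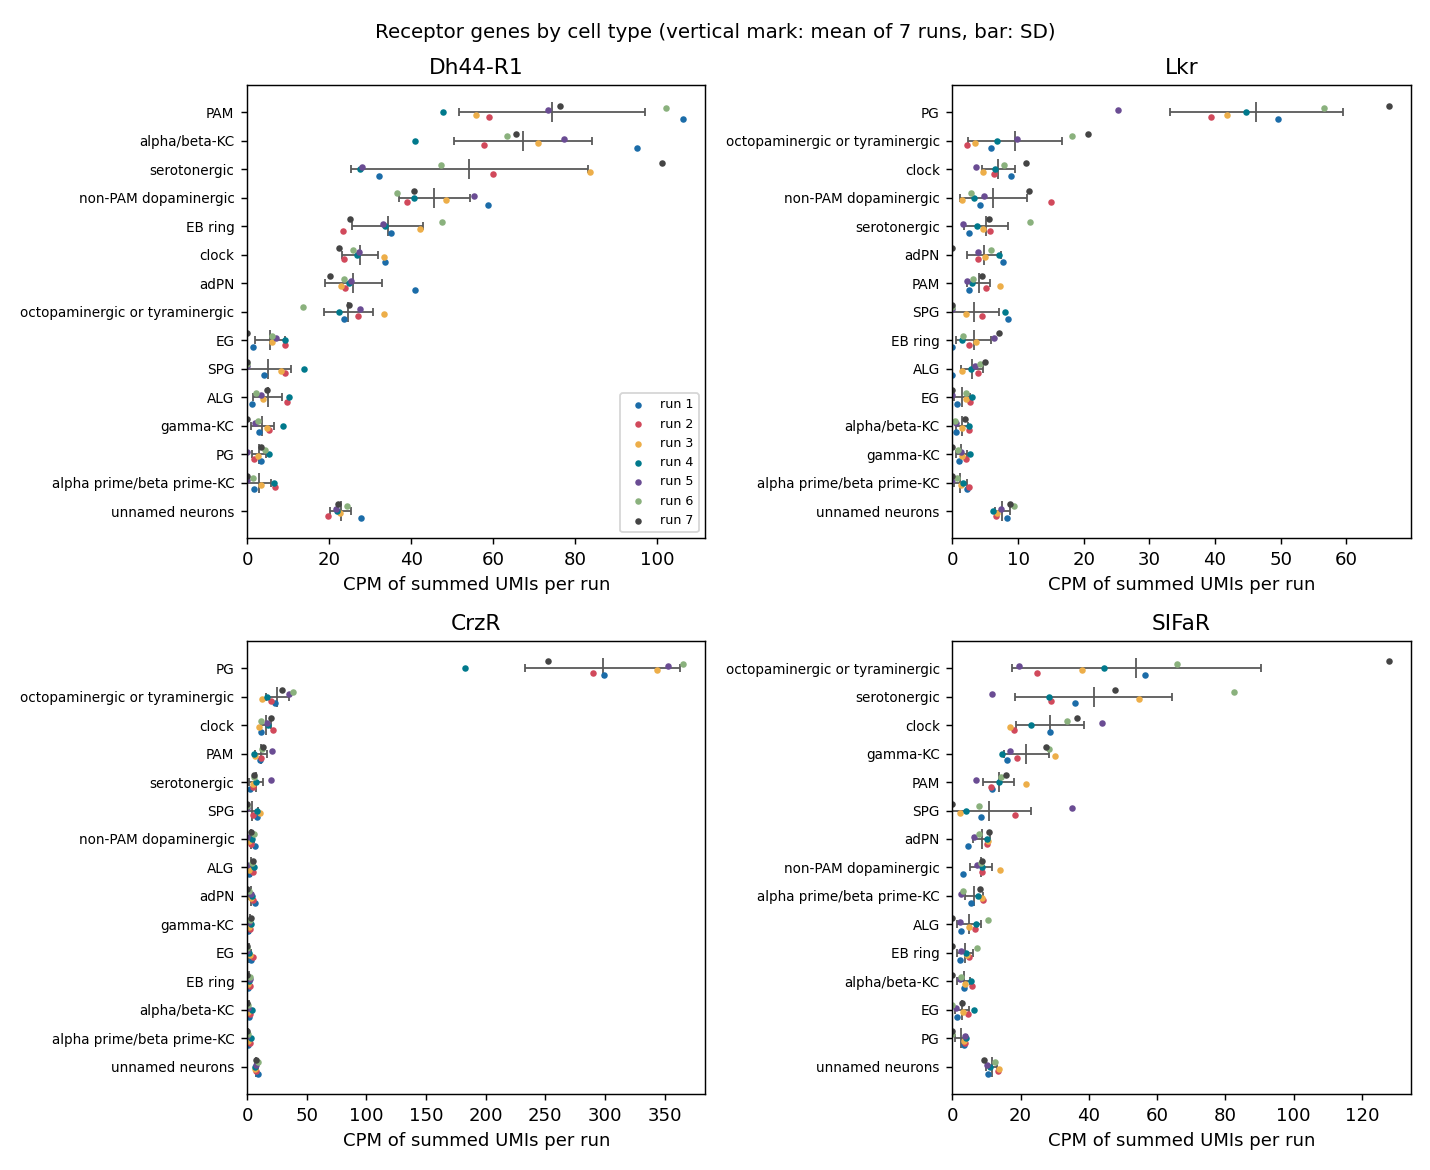
CPM (linear axis) of the 4 receptor genes, 1 panel each, by cell class; each point is a run colored by its number, the vertical mark is the mean of 7 runs and the bar the SD. *CrzR* in PG (182 to 366 CPM) and *Lkr* in PG (25.2 to 66.5 CPM) stand clear of unnamed neurons, and *Dh44-R1* separates α/β-KC (40.9 to 94.98 CPM) from γ-KC (mean 3.73 CPM).

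The partner receptors gave other orders. *Dh44-R2* averaged 115.1 CPM in PG (3.74, adjusted p = 1.68e-09), 80.6 CPM in EB ring-like neurons (2.86, adjusted p = 3.19e-13), 65.5 CPM in α/β-KC (2.56), 54.2 CPM in SPG (2.19) and 23.95 CPM in *Ilp2* cells (1.39), and was lower in γ-KC (-1.26). It was also higher in PAM dopaminergic-like neurons (23.2 CPM, 0.95, adjusted p = 1.79e-05). Both Dh44 receptors were thus called higher in α/β-KC, EB ring-like and PAM dopaminergic-like neurons, and *Dh44-R2* higher with *Dh44-R1* lower in PG, SPG, EG and *Ilp2* cells. In EG the *Dh44-R2* difference was 0.47 (adjusted p = 0.0105), with EG higher in 3 of 7 runs. The means were 11.1 CPM in EG and 11.1 CPM in unnamed neurons. Without the *Dh44* cells among them, *Ilp2* cells had 18.5 CPM of *Dh44-R2* from 36 UMIs (0.92, adjusted p = 0.0276), and their lower *Dh44-R1* call was lost (-1.04, edgeR adjusted p = 0.0635). *CCKLR-17D1* averaged 42.7 CPM in γ-KC (2.15) and 20.7 CPM in α/β-KC (1.04), and *CCKLR-17D3* 51.0 CPM in γ-KC (1.09).

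Single clusters reached levels that the named classes did not. *SIFaR* was at 414 CPM in cluster 192 (126 unnamed neurons, 223 to 612 over runs), 47.1 times the median cluster, in cells led by *CG33777*, *CG15186* and *ort*, a histamine-gated channel gene. Cluster 115, which held most lower *Crz* cells, was at 64.1 CPM (39.3 to 88.6). *Dh44-R1* was at 171 CPM in cluster 99 (583 unnamed neurons, 149 to 243), 9.82 times the median cluster, and *Lkr* at 62.5 CPM in cluster 175 (218 unnamed neurons, 36.8 to 129). *CrzR* had no cluster above PG, where it was at 270 CPM over all cells, and the next was cluster 181 at 58.8 CPM.

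Over the 210 clusters, the genes whose log2 CPM (with 10 CPM added) followed each receptor most closely, among 8025 genes with at least 1000 UMIs, were found as a description. They were *CG15279*, *CG14397* and *slow* for *CrzR* (Pearson r = 0.60, 0.59 and 0.57), *CG3277*, *CG15704* and *CrzR* for *Lkr* (0.49, 0.45 and 0.44), *CAHbeta*, *Lgr1* and *CG13759* for *Dh44-R1* (0.46, 0.45 and 0.44) and *CG3822*, *CG5910* and *Fim* for *SIFaR* (0.44, 0.41 and 0.41). Clusters share libraries and depth, and are not independent.

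Between runs the peptides varied far more than the receptors. Over all cells, *Lk* ran from 1.38 to 80.7 CPM (58.5-fold), *SIFa* from 9.002 to 294 CPM (32.6-fold), *Crz* from 78.7 to 1301 CPM (16.5-fold), *Dsk* from 29.9 to 323 CPM (10.8-fold) and *Dh44* from 32.5 to 76.7 CPM (2.36-fold). *CrzR* ran from 8.93 to 9.61 CPM (1.08-fold), *Lkr* from 6.21 to 8.38 CPM (1.35-fold), *Dh44-R1* from 20.8 to 28.5 CPM and *SIFaR* from 9.94 to 13.7 CPM (1.38-fold each). Single cells set some of these totals: 1 cell in run 6 held 89.4% of that run's *Crz* UMIs (39927), 1 held 95.9% of its *Lk* UMIs (6707) and 1 held 80.6% of its *SIFa* UMIs (7269), and 1 cell in run 2 held 87.7% of that run's *Dsk* UMIs (37993).

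**Figure D5:**
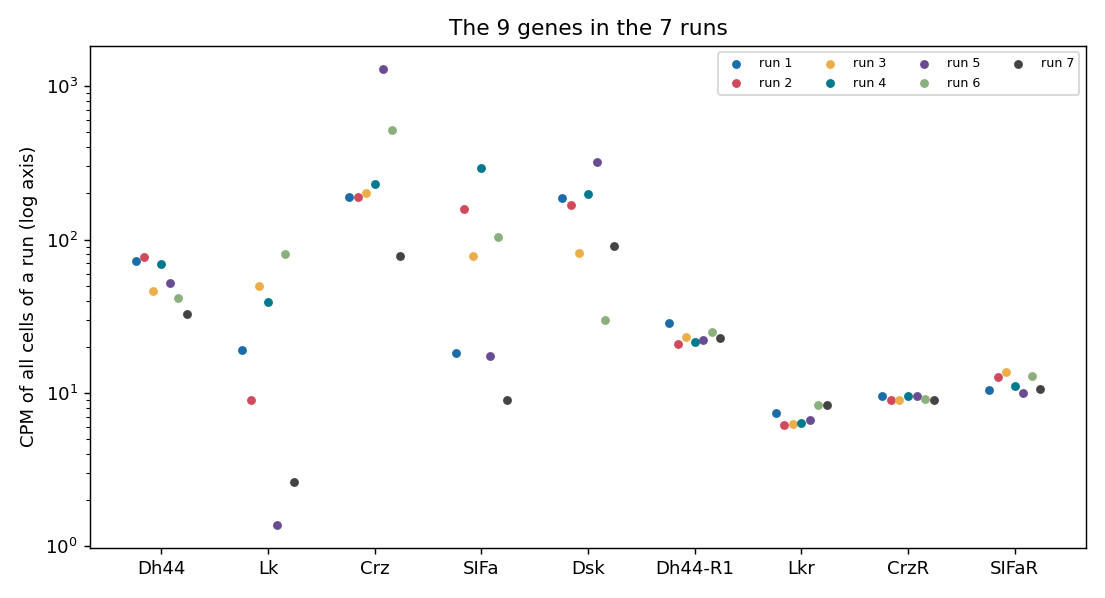
CPM of the 9 genes over all cells in each run (log axis); each point is a run, colored by its number. The peptide genes spread from 2.36-fold (*Dh44*) to 58.5-fold (*Lk*), and the receptor genes from 1.08-fold (*CrzR*) to 1.38-fold.

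The runs of a single time allowed 1 comparison, of run 5 (ZT 20) with runs 6 and 7 (ZT 8), fitted with all runs sharing 1 estimate of the spread. None of the 9 members was called by edgeR or by DESeq2, and 1 had an unadjusted p under 0.05, with 16 of 11248 genes higher (0.142%) and 5 lower (0.0445%), and 774 of the 11248 had an unadjusted p under 0.05. That one was *Dsk*, at 323 CPM in the ZT 20 run, against 29.9 and 91.4 CPM in the ZT 8 runs (2.42, SE 0.64, edgeR adjusted p = 0.463), which passed without run 2 (adjusted p = 0.0162) or run 3 (0.0178). *Crz* was at 1301 CPM, against 516 and 78.7 CPM (2.11, adjusted p = 0.723), and passed without run 6 (4.08, adjusted p = 0.000159) or run 7 (1.31, adjusted p = 0.0228). *Lk* was at 1.38 CPM, against 80.7 and 2.63 CPM, and *Lkr* at 6.70 CPM, against 8.38 and 8.34 CPM (-0.32, adjusted p = 0.718). The clock gene *vri* was lower, at 4.09 CPM, against 10.7 and 10.9 CPM (-1.41, adjusted p = 0.0365). With 1 run at ZT 20, the run, its lines and conditions and the time cannot be told apart.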

How the data were processed

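The authors deposited raw UMI counts per gene and barcode for each of the 7 runs (10x Genomics 3′ libraries). The submitters' processing notes name Cell Ranger 3.1.0, Scanpy 1.4.4 and builds BDGP6 and dm6, with no role given. A deposited sample table gave ages, ZT and conditions per run and line, and no fold change or p-value of the authors was used. The antibody features of runs 5 to 7 held 0 UMIs and were left out. Gene positions came from a BDGP6 annotation by symbol. Members, lists and tests were chosen with earlier results of these data known.

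A limit of 200 genes from below and of 30% mitochondrial UMIs from above left 157482 of 164038 barcodes. Doublets were called per run with Scrublet in scanpy 1.11.5 (Python 3.11.15). In runs 6 and 7 its automatic threshold marked 2 and 0 cells, so that of run 5 (0.3913) was used there, which removed 2.33 and 0.702% of their cells, against 2.68 to 16.2% in the other runs. Cells were clustered from 1146 variable genes and 58 principal components (Louvain, resolution 8, igraph 0.11.9), with the 9 members left out. A cluster took a name from its marker list when at least 3 markers (5 for KC and clock neurons) were 2-fold above the other clusters and held in 10% of cells, with defining genes required for KC subtypes, PAM, EB ring and adPN, and these limits were set after the cluster profiles were seen. A "-like" name stands for that rule, also where it is not repeated. Clusters of low depth, or with markers of both glia and neurons, stayed out.

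UMIs were summed per run and group (at least 3 peptide cells in at least 4 runs, or 5 cells of a class) and tested with edgeR 4.0.16 in R 4.3.3 (TMM, filterByExpr, quasi-likelihood, run as a block, two-sided), with Benjamini-Hochberg adjustment over all genes and a threshold of 0.05. In receptor tests, *Ilp2* cells were left out of unnamed neurons. The lowest, median and highest receptor values given for unnamed neurons include *Ilp2* cells, and the means given beside those tests leave them out. CPM divide a sum by all UMIs of the group, and in the description of levels the peptide's own UMIs were left out of the total. Named genes were the members, list members, and per peptide the 10 largest differences upward and 5 downward that were called and had 1 direction in every run used. Lists covered peptide processing and release, transmitters, other peptides, clock genes, patterning factors and partners. On simulated counts, genes changed by 2 on the log2 scale were recovered at 93% for *Lk* cells, 99% for *SIFa* cells, 100% for PG and 100% for the ZT comparison, and genes changed by 1 at 19, 40, 65 and 75%. The changed genes were drawn only above a minimum level, which *Lkr*, *CrzR* and *SIFaR* did not reach in the reference groups. The simulated spread was a single fixed value per comparison, with runs differing in depth only. These shares therefore do not apply to those receptors or to peptides that varied widely between runs.

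Alternatives were DESeq2 1.42.0, no filter on low counts, limits of 10 and 50 UMIs, called doublets kept, neuronal clusters only, 20% mitochondrial UMIs, resolutions 4 and 16, an exact sign-flip permutation test over runs (smallest p 0.0156) and leaving out each run. Peptide cells under 500 UMIs alone, a reference limited on the peptide itself only, and *Ilp2* cells without *Dh44* cells were added after seeing the data. Sequences of the members were not used here.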

Additional observations from a re-analysis of the deposited data

Results flagged for a closer look

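Of 74 groups of runs examined for a single value far from the rest, 5 had one. Chance gives about 1 in 20 such groups, and no cause was tested. *Crz* over all cells was at 1301 CPM in run 5, with the other runs at 78.7 to 516. *Dh44-R1* in adPN-like neurons was at 41.0 CPM in run 1, against 20.1 to 25.4 in the others. *Lkr* in serotonergic-like neurons was at 11.8 CPM in run 6, from 4 UMIs, against 1.65 to 5.68. *CrzR* in serotonergic-like neurons was at 19.8 CPM in run 5, against 2.57 to 7.63. *SIFaR* in octopaminergic or tyraminergic-like neurons was at 127.9 CPM in run 7, against 19.6 to 65.8.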

How the results depend on the processing

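With limits of 10 and 50 UMIs in place of 20, the *Dh44* cells numbered 820 and 64, the *Crz* cells 102 at 50 and the *Dsk* cells 41 at 10. In the peptide cells under 500 UMIs alone, 455 genes were higher in *Crz* cells and 468 in *SIFa* cells. Leaving out 1 run at a time gave 204 to 264 *Dh44* cells. It gave 562 to 877 higher and 514 to 925 lower genes for *Dh44*, 512 to 667 and 583 to 781 for *Crz*, 500 to 684 and 791 to 1004 for *SIFa*, and 538 to 1019 and 595 to 1334 for *Lk*, with 538 and 595 without run 3 and 588 and 621 without run 4. In the 14 marker-defined classes, *Ilp2* cells aside, the 14 receptor calls higher and 29 lower came to 13 to 14 and 26 to 29. In the ZT comparison, 21 genes were called; 2 were with no filter, 44 with only the 3 runs of 1 time, 118 with DESeq2 and 21 to 96 with 1 run left out, of them 96, 94, 56 and 80 without runs 2, 3, 6 and 7, and 0 to 1 members.

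Differences that turned were *Clk* in *Dh44* cells (-1.12 at 50 UMIs) and *drm* in *Dh44* cells (0.34 at 10 UMIs). In the peptide cells under 500 UMIs alone they were *Dh44-R1* in *Crz* cells (-1.51), *Crz* in *SIFa* cells (0.020) and *SIFaR* in *SIFa* cells (-1.69). Peptide genes in cells of another peptide also turned. None of these was called in the reported test, and all 6 were lower, from -2.57 to -3.62, against neurons limited on the cells' own peptide alone. They were *SIFa* in *Dh44* cells (-2.57 there, -0.43 without run 3 and at most 0.89, without run 4), *Lk* in *Dh44* cells (0.87 at 50 UMIs, -0.93 to 0.16 over the runs left out, without runs 2 and 3), *Crz* in *Lk* cells (-3.15 there, -0.15 at 50 UMIs, -0.12 at 10, -0.020 in neuronal clusters only, and -0.43 to 0.21 over the runs left out, without runs 1 and 4), *SIFa* in *Lk* cells (0.0029 with DESeq2, -0.73 to 0.70 over the runs left out, without runs 2 and 4), *SIFa* in *Crz* cells (0.23 under 500 UMIs) and *Lk* in *SIFa* cells (0.21 with DESeq2, 0.24 at 10 UMIs, -2.09 to 0.37 over the runs left out, without runs 4 and 3). Among classes they were *CrzR* in SPG (-0.49 to 0.040 over the runs left out, the highest without run 6), *CrzR* in PAM (-0.033) and *SIFaR* in PAM (-0.016), *Dh44-R1* in adPN (-0.00078 at resolution 4), *SIFaR* in non-PAM dopaminergic (0.045), *Dh44-R1* in octopaminergic or tyraminergic (-0.037) and *Lkr* in octopaminergic or tyraminergic-like neurons (0.22 at resolution 16, -0.37 to 0.011 over the runs left out, the highest without run 2, and 0.0079 with the sign-flip test), and *SIFa* in the ZT comparison (-2.60 to 0.99 over the runs left out, the highest without run 6). The cause was not tested. Of the 46 receptor calls, 44 kept their direction and side with DESeq2, 44 with no filter and 43 at resolution 16. At resolution 4, 40 kept them, 3 were lost and the rest had no value. The number of cells limits the rarest groups: *Dsk* was not tested for lack of runs with enough cells.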
